A study of Mus musculus with 8 samples.

Results

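Bardet-Biedl syndrome genes that encode subunits of the BBSome, the GTPase that recruits it and the chaperonin-like proteins that help assemble it were followed through serum starvation of a ciliating kidney cell line. The members were the BBSome subunits Bbs1, Bbs2, Bbs4, Bbs5, Bbs7, Ttc8 (the gene of BBS8) and Bbs9, the Arf-like GTPase Arl6, and the chaperonin-like genes Mkks (the gene of BBS6) and Bbs12. A probe was taken for a member when its array name, or the current symbol or synonym behind its accession, was that gene. All 10 genes were found, on 16 of the 41174 non-control probes of the array. Of these, 15 probes, at least 1 for each gene, were well above background and entered the tests, which covered 16068 genes in all.

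The cells were IMCD3, an established mouse cell line derived from inner medullary collecting duct epithelium. The starved cells had been kept for 48 h in medium without fetal calf serum, a treatment the labels give as a means of inducing ciliogenesis. The unstarved cells grew in 10% serum, had been split 1:10 on the day before harvest and were not confluent, so the effects of serum and of cell density cannot be told apart. No genetic change or other agent was applied to either group, and the series belongs, by its title, to a screen for genes acting downstream of FOXJ1, which drives motile ciliogenesis.

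The 8 samples, 4 per group, came from 4 hybridisations of a starved with an unstarved RNA on 2-colour 60-base arrays of a single slide. By the labels, arrays 1 and 3 carry replicate 1 with the starved RNA in Cy5, and arrays 2 and 4 carry replicate 2 with the starved RNA in Cy3. The series text instead describes a dye swap within each replicate, so replicate and dye orientation cannot be told apart here, and a dye effect cancels only in the mean of both replicates. Values below are log2 ratios, starved over unstarved, with the standard error (SE) of limma's moderated fit over the 2 replicates. That fit draws each gene's spread towards a prior shared by all genes (SD 0.18, 15.1 degrees of freedom). Every SE and interval below therefore rests mostly on the prior, and little on the gene's own 2 replicates. Rab8a, with replicates at -0.46 and 0.36, has an SE of 0.16. Bbs5, at 0.04 and 0.05, has 0.12. A gene is called higher or lower where its Benjamini-Hochberg adjusted p over all tested genes is below 0.05. The labelled cell line was checked against its markers: all 9 collecting duct and epithelial markers were above background, with a summed signal of 325660 to 428261 in the starved and 436547 to 492208 in the unstarved samples. The sum does not give the direction of each marker. Scnn1g (2.30), Cdh1 (0.67) and Epcam (0.61) were called higher, Krt8 (-0.64) was called lower and 5 did not pass. That is 44.4% called, beside 31.4% of all tested genes. Of 6 fibroblast markers only Col1a1 was above background, at 261 to 293 starved and 525 to 597 unstarved, and none of 3 endothelial markers was. The 3 leukocyte markers, Ptprc, Cd68 and Cd3e, together gave 730 to 853 starved and 864 to 1035 unstarved. Their part in the results below was not tested.

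The BBSome is a coat-like complex that carries membrane proteins into and out of the primary cilium, the antenna-like organelle that most kidney epithelial cells bear after they leave the cell cycle. Arl6 in its GTP-bound form recruits the complex to membranes through Bbs1. Bbs2, Bbs7 and Bbs9 form an early assembly core, which Mkks, Bbs12 and Bbs10 help to build together with the CCT chaperonin ring, and mutations in BBSome subunits, Arl6 or the chaperonin-like genes cause Bardet-Biedl syndrome, a disorder with obesity, retinal degeneration and kidney disease.

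Expression of a gene with several exons was read in places by probes that cross a splice junction: 5 of the 16 probes did, since their mm8 interval is longer than the probe. Those 5 are shown because they can pair in full only with spliced RNA, and because the pair from Bbs7 gave different ratios. Each is the 60-base array oligo, on the minus strand of the mm8 build, in the order Bbs4 (chr9:59122182-59122852), Bbs7 upstream (chr3:36799255-36801786), Bbs7 downstream (chr3:36767178-36767331), Arl6 upstream (chr16:59563560-59565291) and Arl6 downstream (chr16:59561088-59563515). The position of the junction within each oligo was not determined, so no letter is in capitals.
Bbs4: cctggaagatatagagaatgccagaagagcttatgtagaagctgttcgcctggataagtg
Bbs7 upstream: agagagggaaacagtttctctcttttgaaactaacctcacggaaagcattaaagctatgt
Bbs7 downstream: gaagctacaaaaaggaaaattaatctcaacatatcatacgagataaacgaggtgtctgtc
Arl6 upstream: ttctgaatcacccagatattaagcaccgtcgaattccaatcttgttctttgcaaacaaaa
Arl6 downstream: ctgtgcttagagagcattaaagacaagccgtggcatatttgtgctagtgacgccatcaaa

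Starved cells held more Bbs2, Bbs4 and Bbs9 RNA than unstarved cells, by 1.44-fold to 1.55-fold, while the other 7 genes did not pass the test and none was called lower. The 3 calls of 10 are to be read against 31.4% of all tested genes called in either direction and 18.1% called higher, so their share is close to the share over the array. The median ratio of the 10 genes was 0.11, beside 0.005 for all tested genes. It was 0.25 in replicate 1 alone, 0.07 in replicate 2 alone and 0.01 under median centring. In the mean of both replicates 8 of the 10 were above 0 with loess, beside 50.7% of all genes. Under median centring 5 of 10 were above 0, but the share of all genes above 0 was not computed there. The median of all tested genes there was 0.25 in replicate 1 and -0.40 in replicate 2, not 0. In bulk RNA a change in the number of cells that express a gene and a change in RNA per cell cannot be told apart. With the arrays averaged as dye-swapped pairs, as the series text describes, 8 members were called higher and 2 lower. Of all genes, 89.0% were called under the pairing of arrays 1 with 2 and 3 with 4. The share was 87.8% under that of 1 with 4 and 2 with 3, and 88.4% with a dye term. By the labels, each such average holds both replicates, and the dye term takes up the difference between replicates. The spread left is then that between arrays of the same replicate, so these calls do not measure variation between replicates. With each array centred on its median instead of fitted by loess, the ratios of Bbs2, Bbs4 and Bbs9 were 0.61, 0.48 and 0.47, but 0 of the 10 genes passed, beside 1.55% of all genes.

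**Figure D1:**
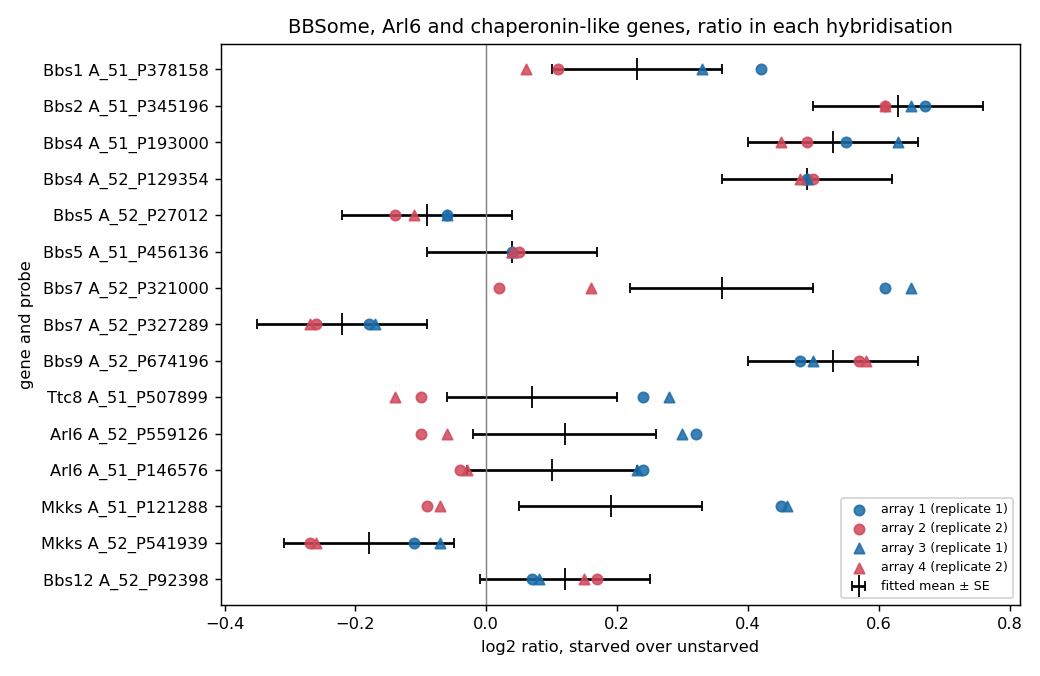
Log2 ratio of starved over unstarved (x axis) for each of the 15 tested probes (y axis), with 1 point per hybridisation, blue for replicate 1 and red for replicate 2, and the fitted mean with its SE as a black bar. All points of Bbs2, Bbs4 and Bbs9 lie at 0.45 or above, while those of Ttc8, Arl6 and the downstream Mkks probe (A_51_P121288) lie on both sides of 0 by replicate.

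The assembly core is made of Bbs2, Bbs7 and Bbs9, each of which carries a beta-propeller. Bbs2 had log2 levels of 10.53, 10.60, 10.61 and 10.43 in the starved samples of arrays 1 to 4 and 9.86, 9.99, 9.96 and 9.83 in the unstarved ones. Every starved sample lay above every unstarved one, and the 4 arrays were nearly alike in their ratio, at 0.67, 0.61, 0.65 and 0.61. The difference was 0.63 ± 0.12 (SE, n = 2 replicates), a 1.55-fold increase with a 95% interval of 0.37 to 0.89 on the log2 scale (limma, adjusted p = 0.000887). Its single probe lies at chr8:96966120-96966179 of mm8, on the minus strand.

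Bbs9 gave levels of 11.66, 11.91, 11.80 and 11.97 in the starved and 11.18, 11.35, 11.31 and 11.39 in the unstarved samples. The groups did not overlap, and replicate 2 was slightly above replicate 1 in both the level and the ratio. The fitted ratio was 0.53 ± 0.12, or 1.44-fold (limma, adjusted p = 0.00346), from the probe at chr9:22638554-22638613 of mm8, on the plus strand. A second probe, designed on another cDNA and placed 208.2 kb upstream, was above background on 0 of 4 arrays in either group and adds no ratio.

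The Bbs7 probes did not give 1 answer for the gene. At the upstream probe, the brighter of the pair, the starved samples had 8.71, 8.67, 8.65 and 8.77 and the unstarved 8.89, 8.93, 8.82 and 9.04, so that every starved value was below every unstarved one. The ratio of -0.22 ± 0.12 nevertheless did not pass over all genes (limma, adjusted p = 0.196; 95% interval -0.48 to 0.04). At the downstream probe, 31.9 kb away, the starved samples had 8.51, 7.95, 8.48 and 8.21 and the unstarved 7.90, 7.94, 7.83 and 8.05, and the groups overlapped through array 2.

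The downstream Bbs7 ratio was 0.63 in replicate 1 and 0.09 in replicate 2, with a fitted mean of 0.36 ± 0.14 (limma over 24589 probes, adjusted p = 0.0676). It exceeded the upstream ratio on each array, by 0.79, 0.27, 0.82 and 0.43. Both oligos, shown above, cross a splice junction and were designed on the same RefSeq transcript. The difference between probes of a gene was described and not tested.

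Bbs4 and Ttc8 are the subunits built of tetratricopeptide repeats, and Bbs4 binds the centriolar satellite protein PCM1. Bbs4 had levels of 11.87, 11.79, 11.85 and 11.74 in the starved and 11.32, 11.30, 11.22 and 11.29 in the unstarved samples at its brighter probe, chr9:59120239-59120298 of mm8 on the minus strand. No value of a group reached the other group. The ratio was 0.53 ± 0.12, or 1.45-fold (limma, adjusted p = 0.00346).

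The junction-crossing Bbs4 probe, 1883 bases upstream, gave 9.14, 9.13, 9.18 and 9.12 starved against 8.65, 8.62, 8.70 and 8.64 unstarved. Its ratio on arrays 1 to 4 was 0.49, 0.50, 0.49 and 0.48, so replicates and dye orientations were the same to within 0.02. The fitted value of 0.49 ± 0.13 passed in the fit over probes (limma, adjusted p = 0.00698). Bbs4 was thus the only member with 2 probes that both passed, and in that fit 4 of 15 member probes were called, all higher, beside 29.5% of all tested probes called in either direction and 16.3% called higher.

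Ttc8 had levels of 12.41, 12.32, 12.52 and 12.24 in the starved and 12.17, 12.42, 12.23 and 12.37 in the unstarved samples. The starved sample was the higher one on arrays 1 and 3 and the lower one on arrays 2 and 4, so that the direction turned with the replicate, and with it the dye. The replicates gave 0.26 and -0.12, with a fitted mean of 0.07 ± 0.13 (limma, adjusted p = 0.722). The 95% interval of -0.21 to 0.35 leaves room for a change of either sign.

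**Figure D2:**
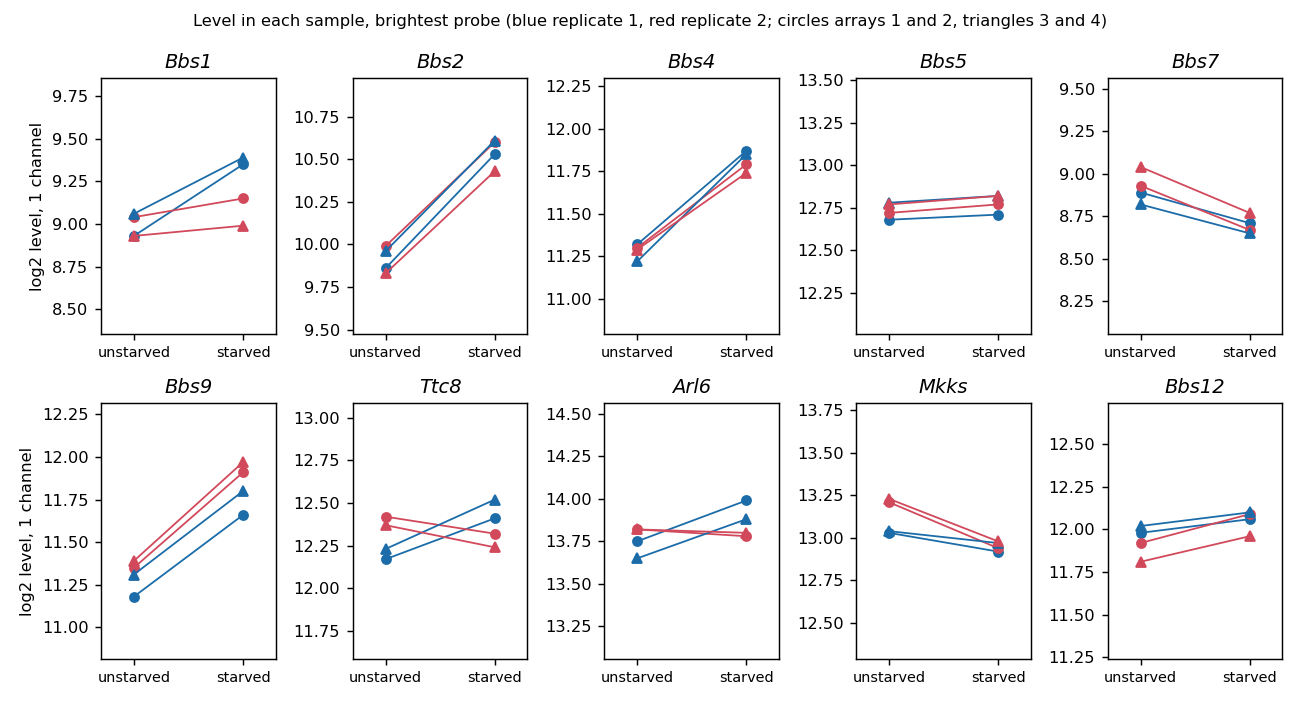
Log2 level of the brightest probe of each gene (y axis, single channel after normalisation) in the unstarved and the starved sample of each hybridisation, joined by a line, blue for replicate 1 and red for replicate 2. Each panel spans the same number of log2 units. All lines rise for Bbs2, Bbs4 and Bbs9, while for Ttc8 and Arl6 the blue lines rise and the red lines fall.

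Bbs1 carries the surface that meets Arl6, and Bbs5 carries pleckstrin-homology domains that bind phosphoinositides. Bbs1 had levels of 9.35, 9.15, 9.39 and 8.99 in the starved and 8.93, 9.04, 9.06 and 8.93 in the unstarved samples. Each starved sample was above its partner on the same array, but the groups overlapped, and array 4 had a ratio of only 0.06. The replicates gave 0.38 and 0.09, and the mean of 0.23 ± 0.13 did not pass (limma, adjusted p = 0.188; 95% interval -0.04 to 0.50).

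Bbs5 had the ratio nearest to 0 of the 10 genes. Its brighter probe read 12.71, 12.77, 12.82 and 12.82 in the starved and 12.68, 12.72, 12.78 and 12.77 in the unstarved samples, a difference of 0.04 or 0.05 on each array. The fitted ratio was 0.04 ± 0.12 (limma, adjusted p = 0.823), with a 95% interval of -0.22 to 0.30. The other probe, 4133 bases upstream, lay at -0.09 ± 0.13.

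Arl6 is not a subunit but the switch that brings the complex to membranes. Its brighter probe read 13.99, 13.78, 13.88 and 13.80 in the starved and 13.75, 13.82, 13.65 and 13.82 in the unstarved samples. As with Ttc8, the starved sample was higher on arrays 1 and 3 only, and the replicates gave 0.24 and -0.03. The fitted ratio was 0.10 ± 0.13 (limma, adjusted p = 0.590), and the neighbouring probe, 44 bases downstream in mm8, gave 0.12 ± 0.14 with the same split, 0.31 and -0.08.

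Mkks and Bbs12 resemble subunits of the CCT ring but act on BBSome assembly. At the brighter Mkks probe (chr2:136577046-136577105 of mm8, minus strand) the starved samples had 12.92, 12.94, 12.97 and 12.98 and the unstarved 13.03, 13.21, 13.04 and 13.23. All 4 starved values were below all 4 unstarved ones, yet the ratio of -0.18 ± 0.12 did not pass (limma, adjusted p = 0.313; 95% interval -0.44 to 0.09). The second probe, 11.3 kb downstream, had 10.17, 9.94, 10.20 and 9.82 starved against 9.72, 10.02, 9.73 and 9.89 unstarved, with 0.46 in replicate 1 and -0.08 in replicate 2.

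As for Bbs7, the downstream Mkks probe had the higher ratio on all 4 arrays, by 0.56, 0.18, 0.53 and 0.18. Bbs12 had 12.06, 12.09, 12.10 and 11.96 in the starved and 11.98, 11.92, 12.02 and 11.81 in the unstarved samples. The starved sample was the higher one on every array, although the groups overlapped, and the ratio of 0.12 ± 0.12 did not pass (limma, adjusted p = 0.513).

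Across the members, 5 of 10 brightest probes had starved and unstarved levels that did not overlap (Bbs2, Bbs4 and Bbs9 upward, Bbs7 and Mkks downward), beside 51.8% of all tested genes. The sign was the same on all 4 arrays for 8 genes, the exceptions being Ttc8 and Arl6, beside 69.4% of all genes. Of the 5 members with 2 tested probes, 3 (Bbs5, Bbs7 and Mkks) had probes of opposite sign, beside 27.7% of the 5880 genes with several tested probes. Arrays of the same replicate and dye differed by at most 0.14 over the member probes. Over all 16068 tested genes the median size of the difference between replicates 1 and 2 was 0.17. Replicate 1 was above replicate 2 for 7 members. The share over all tested genes was not computed, so this count is not read as a trait of the members.

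Centring each array on its median moved the replicates apart as a whole: the median of all tested genes became 0.25 in replicate 1 and -0.40 in replicate 2. Under that setting 9 members were above 0 in replicate 1 and 3 in replicate 2, against 8 and 6 with loess. Relative to the median of all genes in the same replicate, Bbs2 was then at 0.68 and 0.69, Bbs4 at 0.65 and 0.46, and Bbs9 at 0.54 and 0.55. Those values lie within 0.10 of the loess ratios of the same genes and replicates. At their brighter probes, Bbs7 (-0.26 and -0.07) and Mkks (-0.03 and -0.42) stayed below the median of all genes in both replicates. Their downstream probes had fitted loess ratios above 0, at 0.36 for Bbs7 and 0.19 for Mkks.

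**Figure D3:**
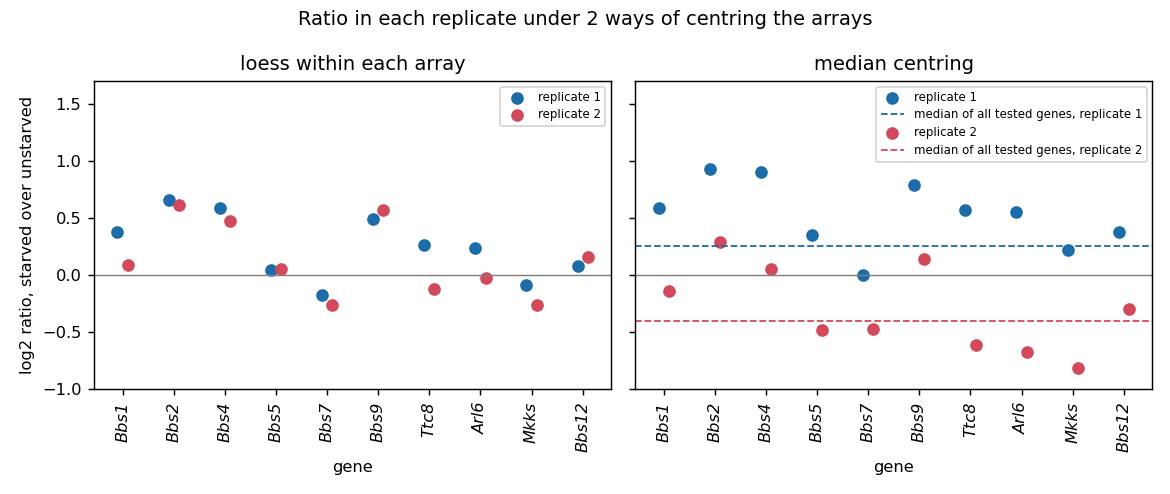
Log2 ratio of the brightest probe of each gene (y axis) in replicate 1 (blue) and replicate 2 (red), after loess within each array on the left and after median centring on the right, where the dashed lines mark the median of all tested genes in each replicate, 0.25 and -0.40. Under median centring the replicates separate for every gene, and Bbs2, Bbs4 and Bbs9 remain above the dashed line of their replicate.

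Genes that work with the BBSome were taken from lists by role. Among 13 other Bardet-Biedl genes, 11 had a probe that matched and all 11 were tested: 5 were called higher, none lower, with a median ratio of 0.23 beside 0.005 for all genes. Those called were Wdpcp, a planar polarity effector (0.95 ± 0.12, limma adjusted p = 2.03e-05), Ccdc28b (0.69 ± 0.12, adjusted p = 0.00042), Ift27, the IFT-B GTPase that promotes BBSome exit from cilia (0.63 ± 0.13, adjusted p = 0.00161), Ift172 of IFT-B (0.62 ± 0.12, adjusted p = 0.00108) and the centrosomal Sdccag8 (0.44 ± 0.13, adjusted p = 0.0139). Their share, 45.5%, stands beside the 31.4% of all genes called and the 18.1% called higher. Other tested probes of these genes gave 0.80 for Wdpcp and 0.50 for Ccdc28b. Those of Ift172 gave 0.63, 0.58 and 0.23, and those of Sdccag8 gave 0.24 and 0.43. None of the 5 was called under median centring, where Ift27 was at 0.30 and Ift172 at 0.34, while Wdpcp (0.91), Ccdc28b (0.65) and Sdccag8 (0.42) moved less.

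The remaining BBSome subunit, the small protein Bbip1, was read differently by its probes. The brighter one (chr19:53983803-53983862 of mm8, minus strand) had 11.13, 10.79, 11.00 and 10.82 in the starved and 10.92, 11.04, 10.84 and 11.06 in the unstarved samples, a ratio of -0.03 ± 0.13 (limma, adjusted p = 0.894). The other, 931 bases downstream, had 9.78, 9.64, 9.68 and 9.74 starved against 8.57, 8.62, 8.43 and 8.65 unstarved, with no overlap. Its ratio was 1.14 ± 0.13 (limma over probes, adjusted p = 2.78e-06), and it exceeded the brighter probe on each array by 1.00 to 1.32. With the mean of both probes, Bbip1 was called higher at 0.56 (limma, adjusted p = 0.00612).

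Bbs10, the third chaperonin-like gene, had a ratio of 0.23 ± 0.13 (limma, adjusted p = 0.207), and a probe that overlaps it gave 0.21. Lztfl1, which regulates entry of the BBSome into cilia, had 0.18 ± 0.13 (adjusted p = 0.307), with 0.31 and -0.06 at its other tested probes. The replicates of Bbs10 gave 0.39 and 0.06, and those of Lztfl1 0.31 and 0.06, the same order as for Bbs1.

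The CCT ring works with Mkks, Bbs10 and Bbs12 on the assembly core. All 8 subunits were tested, 2 were called lower and 0 higher, and the median was -0.26. Cct8 had -0.55 ± 0.12 (limma, adjusted p = 0.00278) and Cct6a -0.50 ± 0.13 (adjusted p = 0.00686), and the other subunits lay between -0.41 and -0.14 at their brightest probes. Other tested probes gave -0.33 for Tcp1, -0.49 for Cct2, -0.55 for Cct3 and -0.63 for Cct4. With the mean of all probes the median of the subunits was -0.37. The 2 calls of 8, 25.0%, stand beside 31.4% of all genes called and 13.4% called lower. Neither was called under median centring, where Cct8 was at -0.88 (adjusted p = 0.679) and Cct6a at -0.71 (adjusted p = 0.966). Below 0 were 6 of the 8 in replicate 1 alone and 7 in replicate 2 alone, and all 8 in the mean under each normalisation tried. Of all tested genes 50.7% were above 0 in the mean with loess. That share was not computed for single replicates or under median centring. In the latter setting the median of all genes was 0.25 in replicate 1 and -0.40 in replicate 2.

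Of 9 trafficking partners, 1 was called higher and 0 lower, with a median of 0.15, or -0.01 under median centring. That share, 11.1%, stands beside 31.4% of all genes called and 18.1% called higher. The gene was Rab11a, the GTPase of recycling endosomes that feeds membrane to the growing cilium (0.70 ± 0.13, limma adjusted p = 0.000479), whose other probes gave 0.13 and 0.49. Under median centring Rab11a was at 0.37 and was not called. Rab8a, the GTPase that acts after it, had -0.46 in replicate 1 and 0.36 in replicate 2, a mean of -0.05 ± 0.16 (adjusted p = 0.833). Rab3ip, its exchange factor, had 0.14 ± 0.12 (adjusted p = 0.425).

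Among 11 receptors and signalling proteins that the BBSome carries or that act in cilia, 8 were tested. Lepr and Drd1 were above background on 0 of 4 arrays in each group, and Sstr3 on 1 starved and 3 unstarved arrays, which left all 3 out of the tests. Npy2r, a neuropeptide Y receptor, was called higher (0.86 ± 0.13, limma adjusted p = 7.56e-05), and Mchr1, the melanin-concentrating hormone receptor, was called lower (-0.35 ± 0.12, adjusted p = 0.0425). These 2 calls of 8, 25.0%, stand beside 31.4% of all genes called. Both were lost under median centring (Npy2r 0.81, adjusted p = 0.806; Mchr1 -0.36, adjusted p = 1.0). The Mchr1 call was also lost with replicates as a random block (adjusted p = 0.0709), without array 3 (0.0626) and without array 4 (0.052). Smo, the Hedgehog transducer, had 0.01 ± 0.13 (adjusted p = 0.966).

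**Figure D4:**
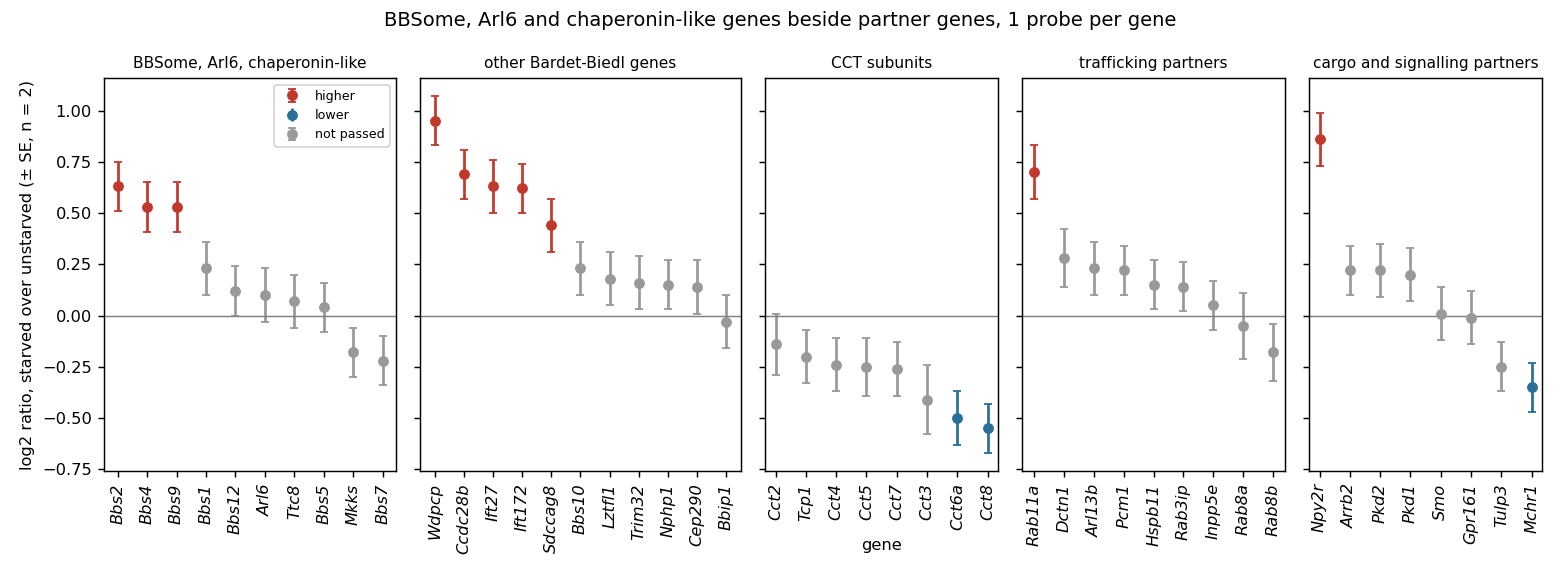
Log2 ratio of starved over unstarved with its SE (y axis, n = 2 replicates) for the brightest probe of each tested gene (x axis), in 5 panels by list, red for genes called higher, blue for genes called lower and grey for genes that did not pass. The 8 CCT subunits all lie below 0, while 8 of the 10 genes of the first panel lie above it (5 of 10 under median centring).

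The X-box, the site bound by RFX factors in promoters of many ciliary genes, was searched in the RefSeq promoters of the GRCm38.p6 assembly, from 250 bases before to 50 bases after each start. The motif GTNNCCNNGGNNAC, on both strands, was found for Bbs1, Bbs4 and Bbs7, 3 of the 10 genes, which have 11 promoters in that table, beside 1.88% of 32851 promoters. The 30 bases around each match are shown, with the motif in capitals, to let the 3 sites be compared. They lie on the minus strand of GRCm38.p6, a different build from the probe positions, at chr3:36613489-36613518 for Bbs7, chr9:59353464-59353493 for Bbs4 and chr19:4906605-4906634 for Bbs1.
Bbs7: gcgccccgGTTGCCTTGGAAACcggccagc
Bbs4: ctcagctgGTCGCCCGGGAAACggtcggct
Bbs1: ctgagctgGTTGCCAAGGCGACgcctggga

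The motif begins 121 bases before the start in Bbs7, and 24 and 2 bases after it in Bbs4 and Bbs1. Of these genes Bbs4 was called higher, while Bbs1 did not pass and the Bbs7 probes lay on opposite sides of 0. Bbs2 and Bbs9, the other genes called higher, had no match in this window. The half-site GTTGCC, which lies within the X-box of Bbs1 and Bbs7, was found for Bbs1, Bbs5 and Bbs7, beside 12.5% of promoters. With its left and right sides 1 base apart (GTNNCCNGGNNAC) or 3 bases apart (GTNNCCNNNGGNNAC) there was no match in the 11 promoters, beside 1.01% and 0.642% of all. The forkhead motif GTAAACA was in 0 of the 11, beside 3.65%. A match is a description of letters and not evidence of binding.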

How the data were processed

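The members and the partner lists were chosen with earlier results of these data known. Total RNA (500 ng per labelling) of starved and unstarved IMCD3 cells was hybridised on 4 two-colour Agilent arrays. Spot intensity values were those the authors deposited, read from the scans by version 9.5.3.1 of Agilent Feature Extraction, per the submitters' processing notes, with probe positions on mm8 per the file headers. Both files of an array were identical for 4 of 4 arrays and were counted once. The authors' deposited table of processed intensities, from which log2 ratios were taken, served as an alternative. Its scaling steps are not given in the sources used here.

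In R 4.3.3 with limma 3.58.1, foreground and background intensities were corrected by normexp (offset 50) and normalised by loess within each array, with control spots and 583 flagged spots at weight 0. Single-channel levels were scaled by Aquantile. Probes well above background on all 4 arrays of at least 1 group were kept, with the brightest per gene. The 2 arrays of a replicate were averaged, then lmFit and eBayes were applied to the 2 replicate ratios, with Benjamini-Hochberg adjustment over 16068 genes, or over 24589 probes. No spot outside the controls was saturated. The fit code was checked on simulated independent noise with added changes of 1 log2 unit. That setting holds neither the smaller ratios of the members nor the tie of replicate to dye, so it does not bear on the calls.

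The pairing of a starved with an unstarved sample is the hybridisation itself. Named were all members with all probes, the genes of each partner list that passed, and 6 partners whatever their result. Alternatives covered background correction, normalisation, filters, probe choice, replicate blocks, array pairings, a dye term and leaving out each array. The number of arrays limits the precision. Names came from RefSeq through accessions for 24375 of 41174 probes.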

Additional observations from a re-analysis of the deposited data

How the results depend on the processing

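The calls of Bbs2, Bbs4 and Bbs9 held in every alternative with a test except median centring, with adjusted p of at most 0.00311, 0.012 and 0.00975. Under median centring 0 members, 0 partners higher and 0 partners lower passed (all member adjusted p = 1.0; Bbs2 0.61, Bbs4 0.48, Bbs9 0.47), with 133 genes higher and 116 lower in all, against 2904 and 2147 with loess. Arl6 (-0.07), Bbs5 (-0.07), Ttc8 (-0.02), Rab3ip (-0.15) and Smo (-0.32) then changed sign. The mean of all probes turned Bbs5 (-0.03), Bbs7 (0.07), Mkks (0.01), Bbip1 (0.56) and Smo (-0.07), and 5 partners were lower, against 3. The array pairings 1+2 with 3+4 and 1+4 with 2+3, and a dye term, each called 8 members higher and 2 lower. Partners called were 21, 20 and 21 higher, against 7, and 12 lower under each. All genes called were 7338, 7249 and 7325 higher and 6958, 6853 and 6875 lower. Under these pairings an average holds both dyes and, by the labels, both replicates. The spread left there, and with the dye term, is then that between arrays of the same replicate. By the labels these calls therefore do not measure variation between replicates. Replicates as a random block gave 3047 higher and 2312 lower, and no replicate block in a single-channel fit 3329 and 2529. The correlation of same-numbered deviations was -0.30, but same-numbered samples carry opposite dyes, so it does not show whether numbers pair samples. Leaving out a replicate leaves no test. With 2 replicates on 1 slide, small differences are not resolved, and the unpassed members are not shown to be unchanged.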
